A study of Pseudochlorella pringsheimii with 2 samples.

Results

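The 6 contigs described here come from the study's list of regulated lipid contigs of *Chlorella ellipsoidea*. They were annotated with phospholipid synthesis, phospholipase or esterase functions. Values were deposited for 13566 contigs, and these were not searched for further contigs with such functions. A contig is a stretch of transcript sequence that was assembled from the reads without a reference genome. The members were taken by contig ID, and each ID was found once in both libraries. Contigs 76019 (phosphatidyl glycerophosphate synthase-like protein) and 83046 (putative phosphatidylglycerol transferase) stand for synthesis. Contigs 88610 (phospholipase/carboxylesterase), 59485 (phospholipase D alpha 2), 82144 (SGNH hydrolase) and 85953 (acetyl xylan esterase) stand for hydrolysis. All 6 were selected on their ratio between these same libraries, since the published list they come from holds only lipid contigs past 2-fold, so the ratios below are a description and no test was applied to them.

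RNA was sequenced from a GmDof4 library and a CK library. The first came from the transgenic strain Dof4-1, which carries the soybean transcription factor GmDof4 behind the maize ubiquitin promoter. The control came from pCK line CK-1, transformed with the vector lacking GmDof4. Both lines share the host strain IGDB-1, the electroporation and the selection marker for resistance to G418, each is a single selected line, and both were grown mixotrophically in Endo medium without antibiotic for 120 h at 25°C and 100 μmol photons per square metre per second. The 3 cultures of a strain were mixed before RNA isolation. There is therefore 1 library per strain, no difference in the deposited reads has a replicate check, and in these reads a difference between the strains cannot be told apart from a difference between cultures, insertion sites or libraries. Because whole cultures were sequenced, fewer cells with a transcript and less transcript per cell cannot be told apart either. The study also ran quantitative real-time PCR of these transcripts and of GmDof4 itself, in Dof4-1 and further transgenic lines, and those measurements are not used here. The GmDof4 transcript was not analysed in the reads, so the label of the transgenic library was not checked against them.

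Phosphatidylglycerol is a phospholipid of photosynthetic membranes in algae and plants. Its precursor, phosphatidylglycerol phosphate, is made from CDP-diacylglycerol and glycerol 3-phosphate. Phospholipases take phospholipids apart, and phospholipase D removes the head group and releases phosphatidic acid, which is both a signal and a precursor of other lipids. The comparison asks how these synthesis and hydrolysis contigs stood in the strain with GmDof4 and in CK. Only contigs past 2-fold were taken, so the comparison cannot show how making or breaking down phospholipids stood as a whole. The SGNH hydrolase and the acetyl xylan esterase are not named for phospholipids.

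The libraries held 14589660 counted reads (GmDof4) and 14823559 (CK). Levels are given as RPKM, the reads divided by contig length in kb and by the library total in units of 1000000 reads. Ratios are GmDof4 over CK, from reads per 1000000 counted reads. The 95% intervals are exact (Poisson for a level, Clopper-Pearson for a ratio or share) and cover counting error only. Over the 13565 contigs with a read, the log2 ratio had a median of 0.09, with quartiles of -0.18 and 0.37.

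Of the 6 contigs, 5 were higher and 1 was lower by more than 2-fold in GmDof4. Over all contigs 5.74% were past 2-fold higher and 2.40% past 2-fold lower, but nothing can be read from that comparison because the members were chosen on this ratio. Both synthesis contigs were higher, and the hydrolysis contigs did not move as a group. The phospholipase/carboxylesterase, the SGNH hydrolase and the acetyl xylan esterase were higher and the phospholipase D was lower.

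**Figure D1:**
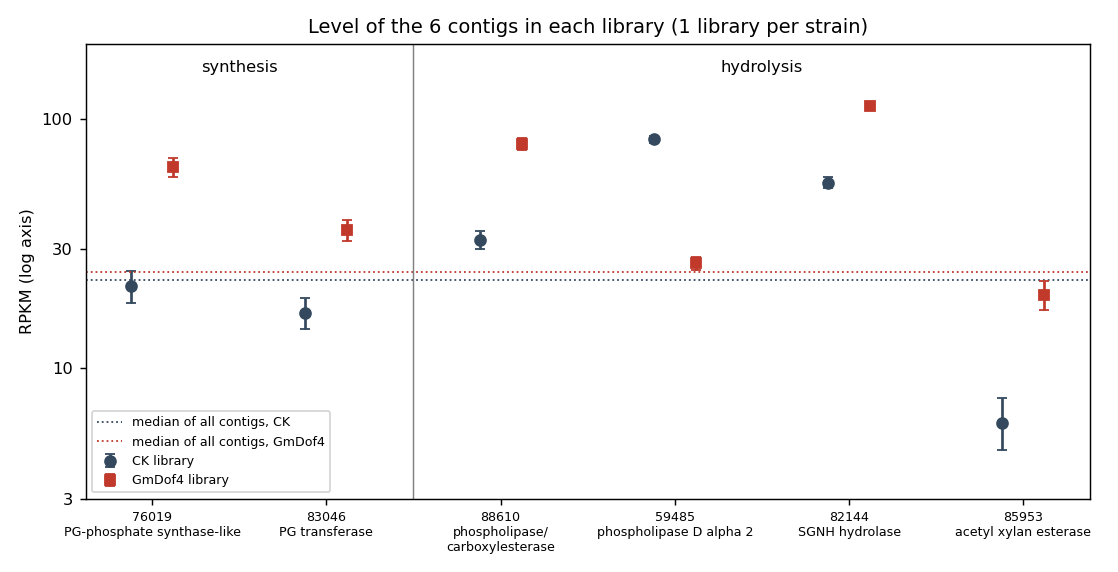
RPKM (log axis) of the 6 contigs in the CK and GmDof4 libraries, with exact 95% Poisson intervals as bars and the median of all contigs of each library as dotted lines. The phospholipase D contig 59485 goes from 82.8 in CK to 26.3 in GmDof4, while the other 5 contigs are higher in GmDof4.

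Contig 76019, of 592 bp, matched a protein like the synthase that forms phosphatidylglycerol phosphate, the committed step towards phosphatidylglycerol. It had 187 reads in CK and 552 in GmDof4. In RPKM this was 21.3 (95% interval 18.4 to 24.6) in CK, just below the median contig of 22.6, and 63.9 (58.7 to 69.5) in GmDof4, where the median was 24.4. The contig was 3.0-fold higher in GmDof4 (2.5 to 3.6), a log2 ratio of 1.58 (1.34 to 1.83). By level it went from above 48.0% of all contigs in CK to above 77.1% in GmDof4.

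Contig 83046, of 789 bp, matched a putative phosphatidylglycerol transferase, a name that does not say which reaction is meant. It had 195 reads in CK and 413 in GmDof4, or 16.7 (14.4 to 19.2) and 35.9 (32.5 to 39.5) RPKM. Its increase was smaller, 2.15-fold (1.81 to 2.56) with a log2 ratio of 1.11, and the interval reached within 2-fold. In CK the synthesis contigs lay close together, with overlapping intervals, and in GmDof4 contig 76019 stood 1.78-fold above contig 83046 in RPKM. The log2 ratio of contig 76019 exceeded that of contig 83046 by 0.48 (0.13 to 0.83). This difference does not depend on the library totals, because they cancel. Whether the contigs are pieces of 1 transcript was not tested.

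The phospholipase/carboxylesterase contig 88610, of 1196 bp, belongs by name to a family of alpha/beta-fold esterases that holds lysophospholipases and enzymes that remove acyl groups from proteins. It had 581 reads in CK and 1386 in GmDof4. Its level was 32.8 (30.2 to 35.5) RPKM in CK and 79.4 (75.3 to 83.7) in GmDof4, which is 2.42-fold higher (2.20 to 2.67). It lay above 62.2% of contigs in CK and above 81.3% in GmDof4.

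The SGNH hydrolase contig 82144, of 1721 bp, is named after a superfamily of esterases and lipases with a serine at the active site. It had the most reads of the 6 in GmDof4, 2827 against 1417 in CK, with levels of 55.5 (52.7 to 58.5) RPKM in CK and 113 (108 to 117) in GmDof4. The ratio was 2.03-fold (1.90 to 2.16), the narrowest interval of the 6 contigs on the log2 scale and the nearest to the 2-fold limit of the list. With a log2 ratio of 1.02 it lay just past that limit. That every member lay past it was fixed in advance by the list. Around that limit, 193 contigs had log2 ratios between 0.9 and 1 and 169 between 1 and 1.1. Under TMM and median-of-ratios scaling its log2 ratio was 0.94 and 0.93, within 2-fold. Its name in the files carries the letter R, as do the names of 15.0% of all contigs, and the other 5 members carry U. Neither the meaning of these letters nor the treatment of reads that fit more than 1 contig is stated in the sources used here.

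The acetyl xylan esterase contig 85953, of 785 bp, was the least abundant of the 6. Enzymes of that name, known from bacteria and fungi, take acetyl groups off the plant cell wall polymer xylan and do not act on phospholipids by name. With 70 reads in CK and 225 in GmDof4, it had 6.02 (4.69 to 7.60) and 19.6 (17.2 to 22.4) RPKM. Only 3.09% of contigs had a lower RPKM in CK, against 40.4% in GmDof4. It had the largest increase of the 6, 3.27-fold, and also the widest interval, 2.49 to 4.33. Its log2 ratio of 1.71 differed by less than the counting error from that of contig 76019, by 0.12 with an interval of the difference (76019 minus 85953) from -0.60 to 0.35. Measured against the running median of 500 contigs of like abundance, its log2 ratio was 1.5.

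The phospholipase D alpha 2 contig 59485, of 3108 bp, was the only member that was lower in GmDof4. The name is that of an *Arabidopsis* gene, and plant enzymes of the alpha type cleave phosphatidylcholine and phosphatidylethanolamine. It had 3814 reads in CK and 1194 in GmDof4. In CK it was the most abundant of the 6 per length, at 82.8 (80.2 to 85.5) RPKM and above 82.2% of all contigs. In GmDof4 it had 26.3 (24.9 to 27.9) RPKM, above 52.9% of contigs and close to the median level. The contig was 3.14-fold higher in CK. Its log2 ratio of -1.65 (-1.75 to -1.56) was in place 72 from the lowest of all contigs. Among the 2421 contigs with at least its RPKM in CK, itself included, 39 had a ratio this low or lower. It had the lowest ratio of the 541 contigs that were at least as long, of which 12, or 2.22%, were past 2-fold lower. The last 2 counts were made after its values had been seen. The first of them takes contigs by their CK level, the denominator of the ratio, and the second by the contig's own length. As the contig was also chosen on its ratio, neither count measures how unusual it is.

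**Figure D2:**
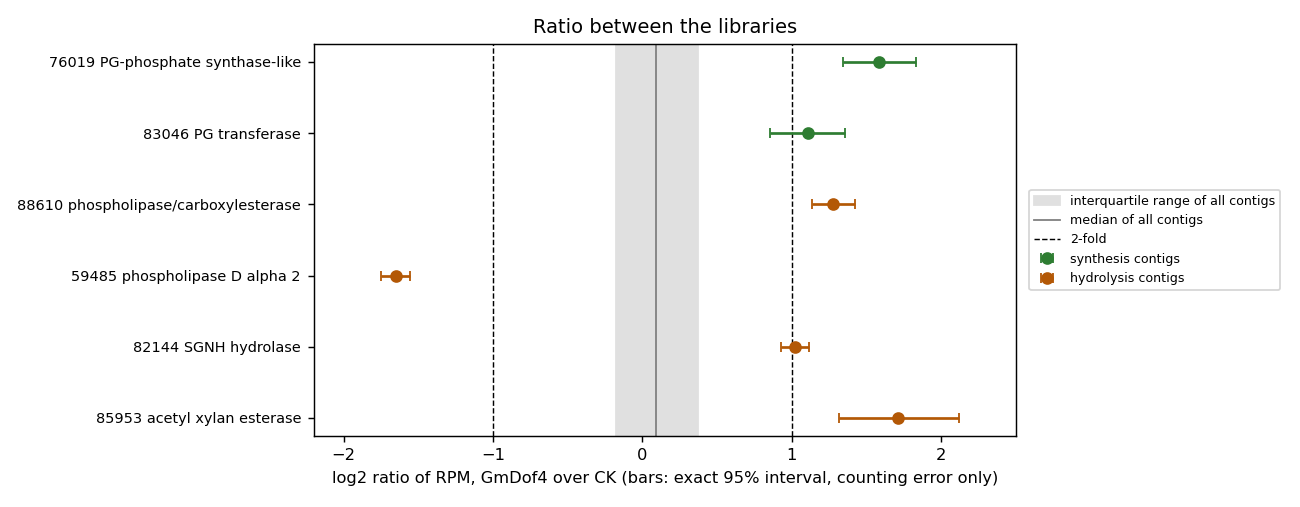
Log2 ratio of RPM, GmDof4 over CK, for each contig, with exact 95% intervals as bars, 2-fold as dashed lines, and the median and interquartile range of all contigs in grey. Contig 59485 at -1.65 is on the opposite side of 0 from the other 5, and the intervals of contigs 83046 and 82144 cross the 2-fold line.

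All contigs were also divided by mean RPKM of both libraries into 5 groups of equal size, numbered from the lowest. Contig 85953 lay in group 2, contig 83046 in group 3, contigs 76019, 88610 and 59485 in group 4 and contig 82144 in group 5. The share of contigs past 2-fold higher was 6.12% in group 2, 5.01% in group 3, 4.90% in group 4 and 4.57% in group 5, and the share past 2-fold lower in group 4, where contig 59485 lay, was 1.95%. The median log2 ratio was 0.16 in group 2 and -0.06 in group 5. As with the shares over all contigs, these values place the members and are not a comparison, since the members were taken for being past 2-fold.

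The order of the levels changed between the libraries. In CK, from the highest RPKM, it was phospholipase D, SGNH hydrolase, phospholipase/carboxylesterase, contigs 76019 and 83046, and acetyl xylan esterase. Only the neighbours 76019 and 83046 had overlapping intervals there. In GmDof4 the SGNH hydrolase came first, followed by the phospholipase/carboxylesterase, contig 76019, contig 83046, phospholipase D and acetyl xylan esterase, with no overlap between neighbours. The phospholipase D contig thus went from the first place to the fifth. Per length it was 2.53-fold above the phospholipase/carboxylesterase contig in CK, and that contig was 3.02-fold above it in GmDof4. The log2 ratios of these contigs, 88610 minus 59485, differed by 2.93 (2.76 to 3.10).

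The spread among the 5 higher contigs was small beside this. Of the 15 pairs of members, the 95% interval of the difference in log2 ratio held 0 in 3, namely 76019 with 85953, 83046 with 88610, and 83046 with 82144. These intervals are not adjusted for the number of pairs. The log2 ratios of the 5 contigs that were higher ranged from 1.02 to 1.71, and each differed from contig 59485 by 2.67 to 3.36. Because all members were chosen past 2-fold, a gap between contig 59485 and each higher contig was fixed in advance, though not its size.

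**Figure D3:**
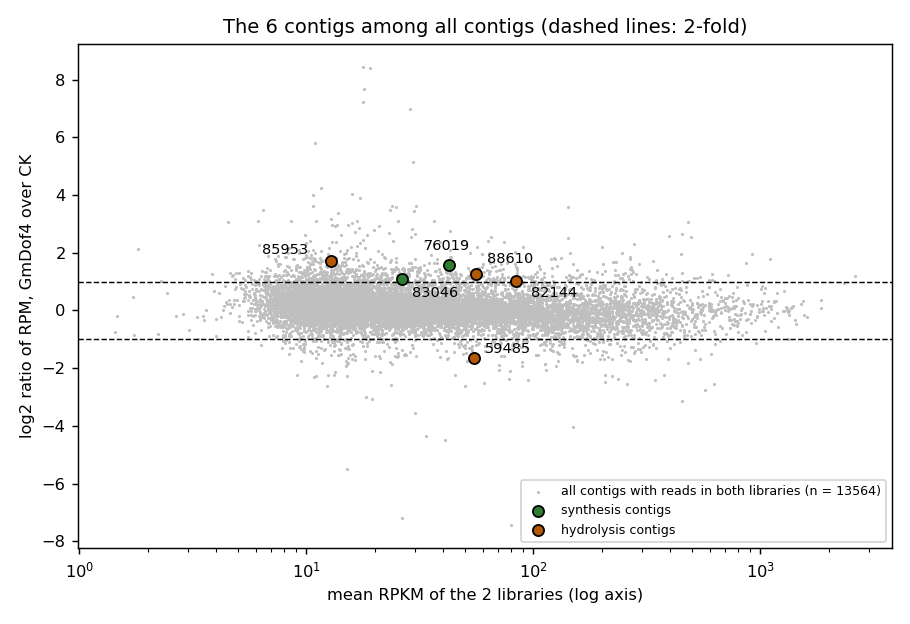
Log2 ratio of RPM (GmDof4 over CK) against the mean RPKM of both libraries (log axis) for the 13564 contigs with reads in both libraries, with the synthesis contigs in green and the hydrolysis contigs in orange. Of the 6 members, only contig 59485 is under the lower 2-fold line, and contig 82144 is the closest to the upper line.

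Seen by role, the synthesis contigs together had 382 reads in CK and 965 in GmDof4, a 2.57-fold higher share (2.28 to 2.90) with a log2 ratio of 1.36 (1.19 to 1.53). The hydrolysis contigs together had 5882 reads in CK and 5632 in GmDof4. Their summed reads gave a log2 ratio of -0.04 (-0.09 to 0.01), while their summed RPKM, from 177 in CK to 238 in GmDof4, gave 0.43 in the other direction. The long phospholipase D contig weighs more in a sum of reads than in a sum of RPKM. Without it the remaining 3 hydrolysis contigs had 2068 reads in CK and 4438 in GmDof4, a log2 ratio of 1.12 (1.05 to 1.20).

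The log2 ratio of synthesis exceeded that of hydrolysis by 1.40 (1.22 to 1.58) on summed reads. Without phospholipase D it exceeded it by 0.24 (0.05 to 0.43). This excess did not hold for both synthesis contigs. Contig 76019 at 1.58 lay above the 1.12 of the remaining hydrolysis contigs, and contig 83046 at 1.11 did not. The hydrolysis contig 85953, at 1.71, lay above both. With phospholipase D included, the difference was 0.97 on summed RPKM and 0.20 between the medians of the contigs. The summed RPKM of the 4 hydrolysis contigs was 4.66 times that of the 2 synthesis contigs in CK and 2.39 times in GmDof4. As the numbers of contigs differ, these values do not compare levels per contig. Without phospholipase D these values were 2.48 and 2.12. The difference between the synthesis and hydrolysis contigs therefore rested mostly on contig 59485. The other hydrolysis contigs were higher in GmDof4, as both synthesis contigs were.

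**Figure D4:**
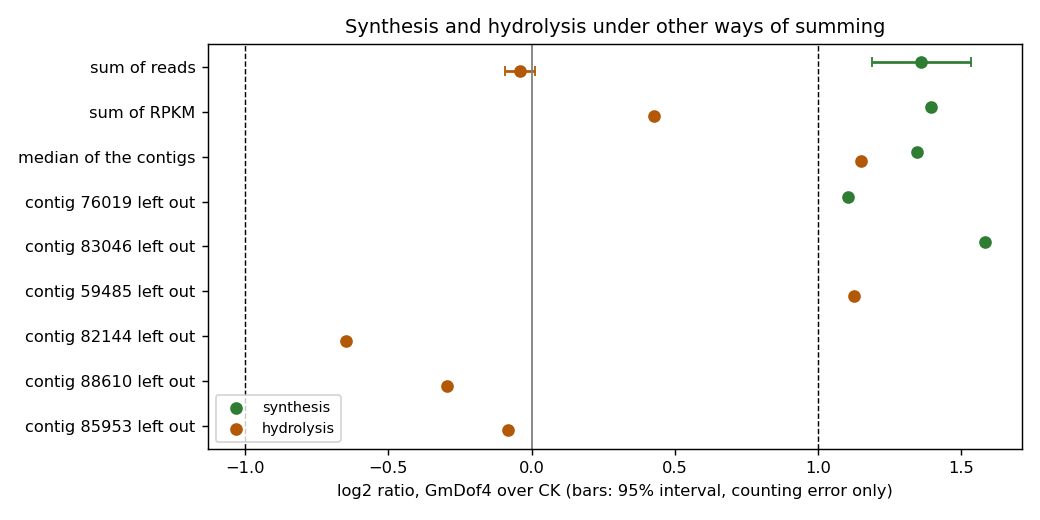
Log2 ratio (GmDof4 over CK) of the synthesis and hydrolysis contigs under different ways of summing and with each contig left out, with 95% intervals (counting error only) on the sums of reads, a grey line at 0 and dashed lines at 2-fold. Synthesis lies between 1.11 and 1.58, which are the ratios of its 2 contigs alone. It could not leave that range here, and both contigs were chosen past 2-fold. Hydrolysis runs from -0.65 without contig 82144 to 1.15 as the median of its contigs.

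The sum of the hydrolysis reads was nearly level, but its make-up differed. Phospholipase D held 64.8% (63.6 to 66.1) of the hydrolysis reads in CK and 21.2% (20.1 to 22.3) in GmDof4, a difference of -43.6 percentage points. The SGNH hydrolase went the other way, from 24.1% (23.0 to 25.2) to 50.2% (48.9 to 51.5). The phospholipase/carboxylesterase went from 9.88% to 24.6% and the acetyl xylan esterase from 1.2% to 4.0%. Of the reads of the contigs named as phospholipases alone, phospholipase D held 86.8% in CK and 46.3% in GmDof4. Shares of this kind do not depend on how the libraries were scaled. As shares of summed RPKM, phospholipase D held 46.7% and 11.1% of the hydrolysis contigs.

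**Figure D5:**
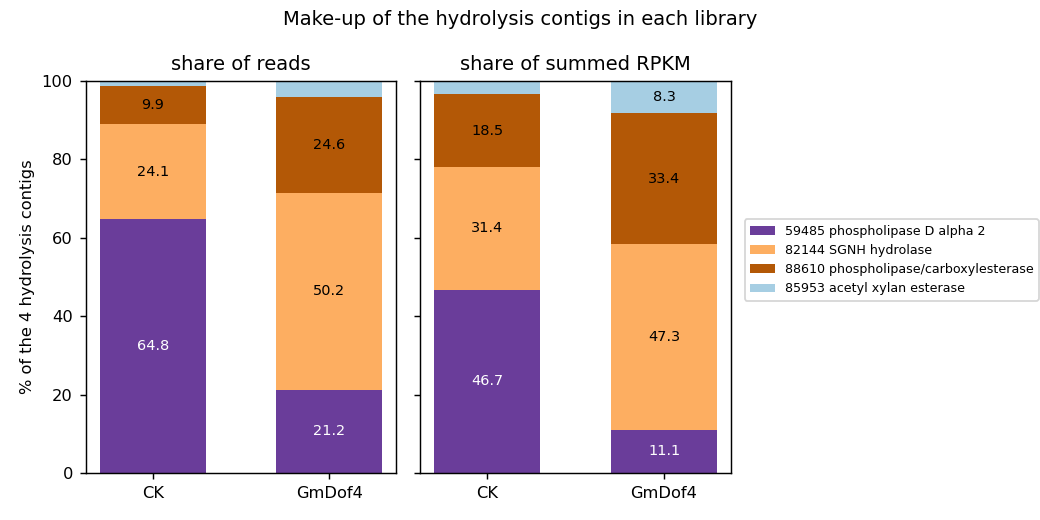
Percentage of the reads (left) and of the summed RPKM (right) of the hydrolysis contigs that each of the 4 contigs held in the CK and GmDof4 libraries. Phospholipase D goes from 64.8% to 21.2% of the reads, and the SGNH hydrolase holds the largest share in GmDof4 on both scales.

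Among the lipid contigs named by the study, 16 others were measured, of which 10 were named for fatty acid synthesis, 2 for fatty acid elongation, 2 for lipid transport and 2 for none of these. Of these 15 were past 2-fold higher and 1 past 2-fold lower, with a median log2 ratio of 1.69, against 1.19 for the 6 members and 0.09 for all contigs. These contigs were also chosen on their ratio in these libraries, so their counts are no independent evidence. Their median RPKM in CK was 5.63, and that of the members 27.0. The 10 contigs named for fatty acid synthesis, 9 past 2-fold higher and 1 lower, had a median log2 ratio of 6.27. Their median in CK was only 0.34 RPKM. Several of them share a matching protein in the study's list, and whether they are pieces of the same transcript was not tested. Outside the lipid contigs, the study names 3 contigs with hydrolase or esterase in their description, all of them also chosen on their ratio in these libraries. The alpha/beta-hydrolase contig 83571, of 940 bp, had 563 reads in CK and 92 in GmDof4. Its log2 ratio was -2.59 (-2.92 to -2.27). The hydroxydechloroatrazine ethylaminohydrolase contig 59899, which by name acts on a triazine and not on lipids, had 824 reads in CK and 187 in GmDof4, a log2 ratio of -2.12. The ubiquitin thioesterase contig 81062, which by name acts on ubiquitin, was higher, with 434 reads in CK and 1967 in GmDof4 and a log2 ratio of 2.20. The last 2 contigs were added after their values had been seen.

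For each member, the contig with the most similar levels was sought by the distance in log2 RPKM over the 2 libraries. The 60 candidates were the other contigs that the study names, with reads in both libraries. They too were chosen on their ratio in these libraries, so a neighbour past 2-fold was fixed in advance. Contigs outside the candidates can lie closer, as 16 others lay within 0.25 log2 units of contig 76019 in both libraries. With so few libraries a small distance only says that the levels lie close together. Contig 86121, named very-long-chain 3-ketoacyl-CoA synthase, an enzyme of fatty acid elongation, lay nearest to the SGNH hydrolase contig 82144 at a distance of 0.16, with 54.8 RPKM in CK and 125 in GmDof4. The surface protein Sur1-like contig 69772 lay nearest to contig 85953 (0.27) and the Rft-1-domain-containing protein contig 78075 nearest to contig 83046 (0.29). For phospholipase D it was the contig named periplasmic L-amino acid catalytic subunit, 56771, at 0.46, with 114 RPKM in CK and 27.5 in GmDof4. Contigs 76019 and 88610 shared a nearest neighbour at larger distances of 0.54 and 0.74, the ubiquitin thioesterase contig 81062. Over all contigs, named or not, 10 others lay within 0.25 log2 units of contig 59485 in both libraries, the fewest of the 6, and 73 of contig 83046, the most.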

How the data were processed

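The authors assembled single-end reads of 3 libraries with SOAPdenovo, mapped the reads to contigs of at least 300 bp with BWA and counted them. The deposited counts are whole reads per contig, without normalization, and the deposited RPKM equal these counts divided by contig length and library total. Contig lengths were read from the contig names, and descriptions come from the study's annotation.

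Ratios were calculated from the counts scaled by library totals, without a pseudocount. Where 1 library of a contig had no reads, 3 were set, which concerns no member. Intervals were exact at 95% (scipy 1.17.1 in Python 3.11.15). Differences between ratios have the conditional interval of the odds ratio. Reads amplified by PCR without molecular identifiers are not independent molecules. No test was applied, as there is 1 library per strain and the members were chosen with earlier results of these data known, as were the lists. The interval calculation was tested on simulated data drawn with counting error only, which says nothing about variation between cultures or libraries. Named contigs are the members, the nearest in level of each among the other contigs that the study names, and the alpha/beta-hydrolase, with 2 contigs added later as stated. Alternatives were TMM and upper-quartile scaling (edgeR 4.0.16), median-of-ratios (DESeq2 1.42.0), totals without the 10 largest contigs, centring on a running median, pseudocounts, other sums and each contig left out. Contig sequences were not used.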

Additional observations from a re-analysis of the deposited data

How the results depend on the processing

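No paired analysis was possible because there is 1 library per strain. The log2 ratios of the 6 contigs kept their direction under all 8 other scalings and pseudocounts, and 1 of these 48 values left the 95% interval of counting error, that of contig 82144 under median-of-ratios scaling (0.93). Contig 82144 was also within 2-fold under TMM scaling, so 4 contigs were then past 2-fold higher under both. Over all contigs, these scalings moved the median log2 ratio by -0.08 (TMM) and -0.09 (median-of-ratios), and of the contigs past 2-fold 62.1% and 60.2% were higher, against 70.5% with library totals. As the members were chosen past 2-fold, shifts of this size could not have reversed a direction.

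The log2 ratio of the hydrolysis sum, -0.04, was -0.12 under TMM and -0.13 under median-of-ratios scaling, 0.43 on summed RPKM (0.42 and 0.43 with pseudocounts of 1 and 0.1) and 1.15 as a median. It was -0.30 without contig 88610, -0.65 without 82144 and 1.12 without 59485. That of synthesis, 1.36, was 1.11 without contig 76019 and 1.58 without 83046, each time the ratio of the remaining contig. Their difference, 1.40, was 0.97 on summed RPKM (0.95 and 0.97 with the pseudocounts), 0.20 between medians, and 1.15, 1.62, 1.66, 0.24 and 2.01 without contigs 76019, 83046, 88610, 59485 and 82144. The change in the phospholipase D share, -43.6 points, was -35.7 on summed RPKM and -40.5 among the phospholipases alone. The smallest number of reads, 70 for contig 85953 in CK, set the widest interval.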
